A study of Homo sapiens with 6 samples.

Results

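Tissue factor and 8 other genes of coagulation control and plasminogen activation were described here, out of 27914 genes measured. They were F3, TFPI, TFPI2, PLAU, PLAUR, PLAT, SERPINB2, THBD and PROCR, chosen by name with earlier results of the same comparison known. All 9 were in the table and all 9 averaged 1 TPM or more, the minimum for testing. TPM is a length-corrected measure of transcript abundance that sums to the same total in each sample.

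The 6 RNA-seq libraries came from MCF10A, a human breast epithelial cell line that is immortalised but does not form tumours. There were 3 libraries of the genotype α-/-;βin and 3 of the wild-type SCRin control, and cells of both groups had received doxycycline for 3 days. The series title names PI5P4K, a kinase family that phosphorylates the lipid PI-5-P, and the Hippo pathway, which acts on transcription through YAP and TAZ. The labels do not expand α, β, SCR or in, and do not say whether the α-/-;βin line was 1 clone or whether replicates were separate cultures. P-values therefore reflect the spread among these libraries alone, and that spread could be technical.

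Tissue factor, the product of F3, is a membrane receptor for coagulation factor VII and starts the extrinsic pathway that leads to thrombin. It is abundant on many epithelial cells and is known as a YAP target gene. TFPI blocks the tissue factor complex and factor Xa through Kunitz domains, and its relative TFPI2 mainly inhibits plasmin and other serine proteases. Thrombomodulin (THBD) and the endothelial protein C receptor (PROCR) turn thrombin towards activation of protein C, which dampens coagulation. Urokinase (PLAU), bound to its receptor (PLAUR), and tissue plasminogen activator (PLAT) convert plasminogen to plasmin, and the serpin SERPINB2 (PAI-2) inhibits both activators.

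The promoters of F3 and TFPI2 are shown because these were the members whose 2 groups did not overlap. They come from RefSeq on GRCh38.p14 and run from 250 bases before to 50 bases after the annotated start, 5′ to 3′ along the gene. F3 lies at chr1:94541710-94542009 on the minus strand and TFPI2 at chr7:93890704-93891003 on the minus strand. Capitals mark matches to the AP-1 motif TGANTCA and to the κB-like motif GGANTTTCC, searched on both strands.
F3: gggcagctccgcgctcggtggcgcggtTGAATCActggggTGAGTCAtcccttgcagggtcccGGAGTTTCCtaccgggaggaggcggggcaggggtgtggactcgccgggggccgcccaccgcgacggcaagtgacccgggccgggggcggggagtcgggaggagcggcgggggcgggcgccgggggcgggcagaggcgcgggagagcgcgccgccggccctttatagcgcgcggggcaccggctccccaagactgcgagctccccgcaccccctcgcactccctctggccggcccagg
TFPI2: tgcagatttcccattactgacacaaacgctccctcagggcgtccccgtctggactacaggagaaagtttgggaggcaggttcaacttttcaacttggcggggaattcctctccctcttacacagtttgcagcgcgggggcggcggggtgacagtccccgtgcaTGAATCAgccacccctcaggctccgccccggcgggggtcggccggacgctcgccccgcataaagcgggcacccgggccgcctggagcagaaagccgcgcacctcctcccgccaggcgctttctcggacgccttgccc

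AP-1 is the dimer of FOS and JUN family factors. The F3 window held 2 matches to its motif, beginning 223 and 210 bases upstream of the start, and the TFPI2 window held 1, beginning 87 bases upstream. At least 1 match was present in 7.71% of all 35116 promoter windows of this length, and at least 2 in 0.515%. The κB-like match in F3 began 187 bases upstream, and 1.64% of windows held that motif. The GC box GGGCGG occurred 4 times in F3 and 2 times in TFPI2 and was present in 45.0% of windows. The EGR1-like motif GCGNGGGCG, which can overlap a GC box, occurred once in each and was present in 9.43% of windows. The TEAD motif GGAATG, bound by the DNA-binding partners of YAP and TAZ, was found in none of the windows of the 7 members that had one, and in 4928 of the 35116 windows in all. The TATA box letters TATAAA, or their reverse complement TTTATA, occurred in the windows of F3, SERPINB2 and PROCR and in 11.5% of all windows. In F3 the match reads TTTATA along the gene. All motifs in this paragraph were counted on both strands.

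PLAUR and SERPINB2 each held 1 AP-1 match, shown in stretches of 31 bases so that the sites of the 4 genes can be compared. That of PLAUR lies at chr19:43670337-43670367 on the minus strand and that of SERPINB2 at chr18:63887591-63887621 on the plus strand, both on GRCh38.p14.
PLAUR: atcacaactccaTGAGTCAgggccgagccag
SERPINB2: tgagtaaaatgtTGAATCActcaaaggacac
The match began 186 bases upstream of the start in PLAUR and 102 bases upstream in SERPINB2. No AP-1 match was present in the windows of TFPI, PROCR or PLAU, which has 2 windows. These matches describe letters in a window and were not tested for binding.

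F3 was the most highly expressed of the 9 genes in every library, and its level in α-/-;βin cells was about 51.0% of that in controls. It measured 323, 260.1 and 346 TPM in α-/-;βin replicates 1 to 3, against 552, 507 and 763 TPM in control replicates 1 to 3. The groups did not overlap, and every control library was higher. The means were 309.6 ± 44.4 TPM in α-/-;βin cells and 607.5 ± 137 TPM in controls (SD, n = 3 each), a log2 change of -0.96 (SE 0.18) on the log2(TPM + 1) scale. Because whole cultures were measured, fewer cells of a type and less RNA per cell cannot be told apart.

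TFPI, the main inhibitor of the tissue factor complex, had nearly the same mean in the 2 groups. It measured 114, 88.4 and 89.5 TPM in α-/-;βin replicates 1 to 3, against 131, 86.7 and 80.4 TPM in control replicates 1 to 3. The groups overlapped, and the log2 change was -0.01 (SE 0.20).

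TFPI2 differed in the direction opposite to F3 and was 3.41-fold higher in α-/-;βin cells. It measured 25.2, 39.8 and 33.6 TPM in α-/-;βin replicates 1 to 3, against 10.6, 11.7 and 6.69 TPM in control replicates 1 to 3. The groups did not overlap. The means were 32.9 ± 7.34 TPM in α-/-;βin cells and 9.64 ± 2.61 TPM in controls (SD, n = 3 each), a log2 change of 1.68 (SE 0.24). TFPI2 lay in the middle of the range of expressed genes, with a mean over the 6 libraries at the 53.2nd percentile of tested genes, where F3 was at the 97.8th percentile.

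THBD and PROCR, the receptors of the protein C system, had slightly higher means in α-/-;βin cells, and for both the groups overlapped. THBD measured 83.2, 86.4 and 72.4 TPM in α-/-;βin replicates 1 to 3, against 60.3, 77.5 and 60.4 TPM in control replicates 1 to 3. PROCR measured 64.8, 87.0 and 83.1 TPM in α-/-;βin replicates 1 to 3, against 61.0, 70.8 and 66.0 TPM in control replicates 1 to 3. For THBD, α-/-;βin replicate 3 lay below control replicate 2, and for PROCR, α-/-;βin replicate 1 lay below control replicates 2 and 3. The log2 changes were 0.29 (SE 0.13) for THBD and 0.24 (SE 0.13) for PROCR.

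**Figure D1:**
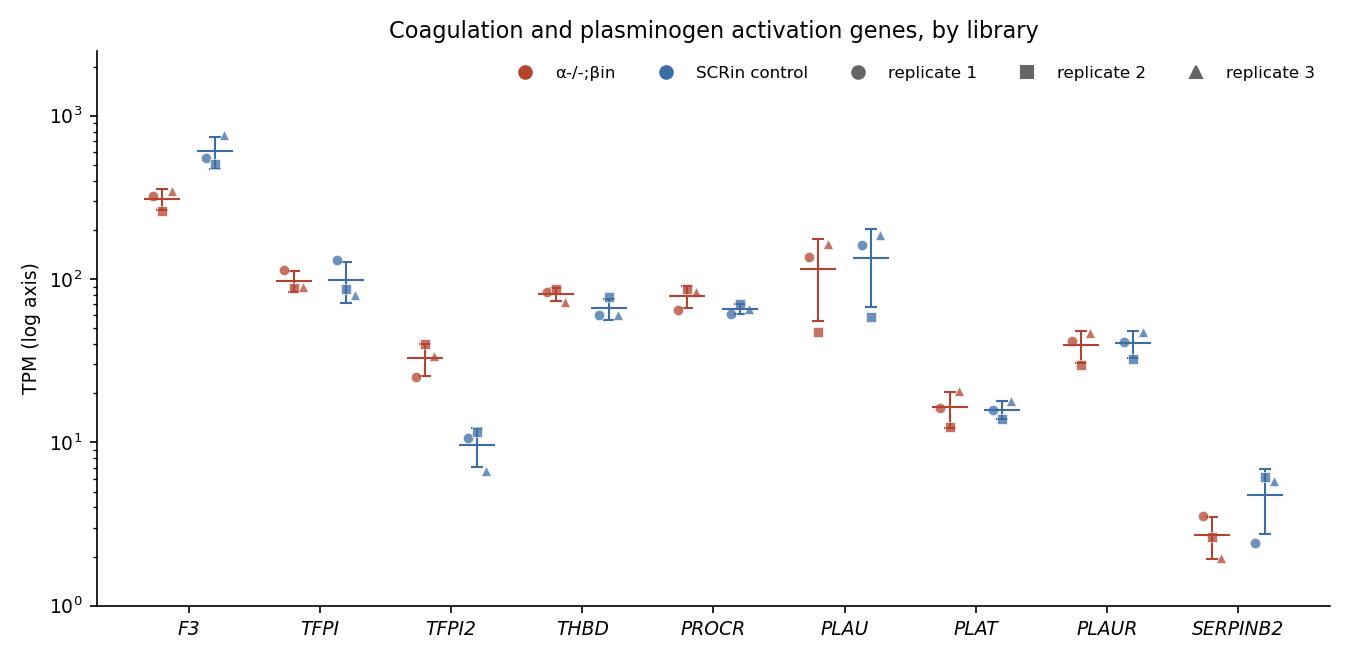
TPM of the 9 genes in each library on a log axis, with α-/-;βin in red to the left of SCRin control in blue. Horizontal marks are means, error bars are SD (n = 3 each) and the point shape gives the replicate number. The groups separate for F3 (lower in α-/-;βin) and TFPI2 (higher in α-/-;βin), and the libraries numbered 2 are the lowest for PLAU in both groups.

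PLAU, which encodes urokinase, varied more within each group than between them. It measured 137, 47.6 and 163 TPM in α-/-;βin replicates 1 to 3, against 161, 58.7 and 185 TPM in control replicates 1 to 3. In both groups the library numbered 2 was far below the others. The means were 115.9 ± 60.6 TPM in α-/-;βin cells and 135 ± 67.0 TPM in controls (SD, n = 3 each), with a log2 change of -0.24 (SE 0.57). This change was 0.31 without α-/-;βin replicate 2, -0.75 without control replicate 2 and 0.07 without control replicate 3.

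PLAUR, the urokinase receptor, measured 41.5, 29.8 and 47.0 TPM in α-/-;βin replicates 1 to 3, against 41.4, 32.5 and 47.2 TPM in control replicates 1 to 3. PLAT, the other plasminogen activator, measured 16.1, 12.4 and 20.6 TPM in α-/-;βin replicates 1 to 3, against 15.7, 13.9 and 18.0 TPM in control replicates 1 to 3. In each gene the libraries of the same number had similar levels in the 2 groups, and the log2 changes were -0.04 (SE 0.20) for PLAUR and 0.03 (SE 0.19) for PLAT.

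SERPINB2, a clade B serpin that inhibits urokinase, was the least expressed of the 9 genes in every library. It measured 3.52, 2.65 and 1.97 TPM in α-/-;βin replicates 1 to 3, against 2.43, 6.14 and 5.80 TPM in control replicates 1 to 3. Control replicate 1 lay inside the range of the other genotype and the other controls above it. The log2 change was -0.59 (SE 0.32), and the added pseudocount understates changes at this level.

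The whole comparison was fitted with limma across 12096 genes, with p-values adjusted by the Benjamini-Hochberg method at a threshold of 0.05. It called 2.19% of them, with 0.364% called higher and 1.83% called lower in α-/-;βin cells. Among the 9 genes it called F3 lower and TFPI2 higher, and 7 did not pass. Because this contrast was known when the genes were chosen, these calls are a description and support nothing further. F3 was past the threshold under 4 of 13 alternative settings and under none of the 6 that left out a library. TFPI2 was past it under 12 of 13, and was missed without α-/-;βin replicate 3. Groups that did not overlap were found for these 2 members, and for 17.1% of all tested genes, 5.64% higher and 11.4% lower in α-/-;βin cells.

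Of the 9 log2 changes, 4 were above 0 and 5 below, with a median of -0.01, beside a median of -0.02 over all tested genes. F3 lay at the 2.36th percentile of all changes and TFPI2 at the 99.5th percentile. SERPINB2 lay at the 5.67th, THBD at the 91.8th and PROCR at the 88.6th percentile. The changes of TFPI, PLAU, PLAUR and PLAT lay between the 17.7th and the 58.8th percentile.

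**Figure D2:**
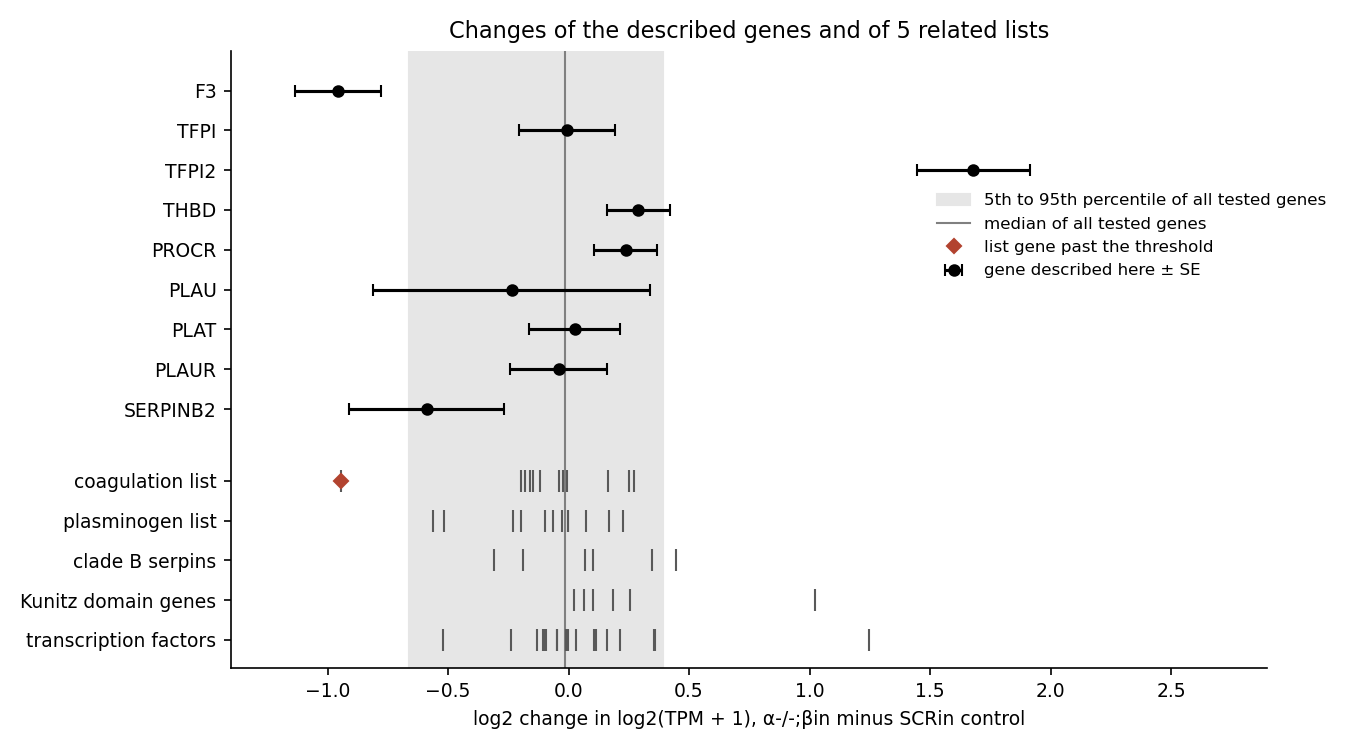
Log2 change in log2(TPM + 1), α-/-;βin minus SCRin control, for the 9 genes (points, bars are the SE of the limma fit) and for the tested genes of 5 related lists (ticks). The grey band spans the 5th to the 95th percentile of all tested genes, -0.66 to 0.39. F3 and TFPI2 lie outside the band, and PROS1 at -0.94 is the list gene past the threshold.

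Since TPM is corrected for length, levels can be compared between genes within a library. By mean TPM, the order in α-/-;βin cells was F3, PLAU, TFPI, THBD, PROCR, PLAUR, TFPI2, PLAT and SERPINB2. In controls the order was the same except that PLAT stood above TFPI2. Libraries overlapped between PLAU and TFPI and between THBD and PROCR in both groups, so those neighbours in the order did not differ beyond their spread. In the library numbered 2 of both groups, PLAU also lay below THBD and PROCR. PLAUR and TFPI2 overlapped in α-/-;βin cells. TFPI2 was above PLAT in all 3 α-/-;βin libraries and below it in all 3 control libraries.

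Ratios of TPM within a library do not depend on how libraries are scaled to each other. The ratio of F3 to TFPI was 2.84, 2.94 and 3.86 in α-/-;βin replicates 1 to 3, against 4.22, 5.85 and 9.49 in control replicates 1 to 3. For F3 to TFPI2 it was 12.8, 6.53 and 10.3 in α-/-;βin replicates 1 to 3, against 52.2, 43.5 and 114 in control replicates 1 to 3. The ratio of TFPI2 to TFPI was 0.222, 0.451 and 0.375 in α-/-;βin libraries, against 0.0808, 0.134 and 0.0832 in control libraries. In none of these ratios did the groups overlap, and tissue factor transcripts outnumbered those of each inhibitor in every library. The ratio of F3 to THBD was 3.88, 3.01 and 4.78 in α-/-;βin libraries, against 9.15, 6.55 and 12.6 in control libraries. These ratios use the same values as the changes above and add no independent evidence.

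For the plasminogen genes the ratios overlapped between the groups. PLAU over PLAUR was 3.30, 1.60 and 3.47 in α-/-;βin replicates 1 to 3, against 3.88, 1.81 and 3.92 in control replicates 1 to 3, again lowest in the libraries numbered 2. PLAU over PLAT was 8.50, 3.82 and 7.92 in α-/-;βin replicates 1 to 3, against 10.2, 4.23 and 10.3 in control replicates 1 to 3, so urokinase transcripts outnumbered those of the other activator in every library. PLAU over SERPINB2 was 38.9, 18.0 and 83.0 in α-/-;βin replicates 1 to 3, against 66.1, 9.57 and 31.9 in control replicates 1 to 3.

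PLAU in the library numbered 2 stood at 31.7% of the mean of the other libraries in α-/-;βin cells and at 34.0% in controls. F3, PLAU, PLAUR and PLAT, 4 of the 9 genes, were lowest in the library numbered 2 in both groups, which was so for 16.4% of all tested genes. PLAU was the 1 member for which every other library of its group had at least 2 times the level of the library numbered 2, in both groups, as it was for 0.653% of all tested genes. Its within-group SD, 0.922 on the log2 scale, was at the 97.5th percentile of tested genes. Those of THBD (0.173) and PROCR (0.176) were at the 46.1st and the 47.2nd percentile.

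Of 12 tested partners of the plasminogen system, 4 were lowest in the libraries numbered 2 in both groups, as were 17 of the 54 tested genes of all 5 lists described below (31.5%). The 4 were SERPINE2, a serpin that inhibits urokinase, ANXA2 and S100A10, the annexin A2 complex that binds plasminogen at the cell surface, and ST14, a membrane serine protease that can activate urokinase. These genes were singled out after their values were seen. Part of the ANXA2 signal may be shared with its pseudogene copies. What the shared number stands for is not given in the labels and was not tested.

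**Figure D3:**
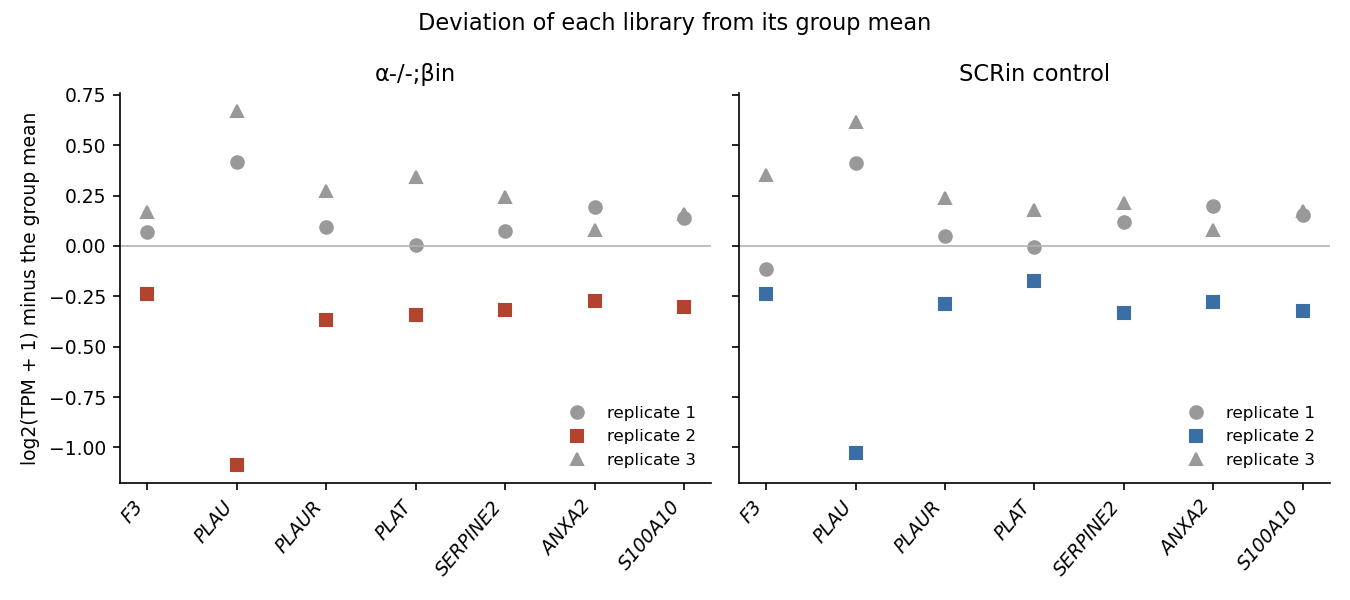
Log2(TPM + 1) of each library minus the mean of its group for F3, PLAU, PLAUR, PLAT and 3 partners, with α-/-;βin on the left and SCRin control on the right. Squares are replicate 2. The 7 genes were picked because replicate 2 is lowest in both groups, as it was for 16.4% of all tested genes. ST14, which shares this, is not shown. For PLAU, replicate 2 is at -1.09 in α-/-;βin and -1.03 in control.

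PROS1, which encodes protein S, the cofactor of TFPI and of activated protein C, was the 1 gene past the threshold among the 54 tested genes of 5 lists of related genes (1.85%, against 2.19% of all tested genes). The lists held 93 genes in all. An unadjusted p under 0.05, counted for each list below, was found for 1438 of the 12096 tested genes (11.9%). It measured 7.72, 11.1 and 8.94 TPM in α-/-;βin replicates 1 to 3, against 18.9, 18.5 and 18.2 TPM in control replicates 1 to 3. The groups did not overlap, and the controls lay close together. Its log2 change was -0.94 (SE 0.14, limma adjusted p = 0.0181), with lower values in 3 of 3 libraries. The call was lost under 5 of 13 alternatives, each with a library left out (adjusted p 0.0113 to 0.0923 over all 13). It was kept without α-/-;βin replicate 2. A protein S pseudogene exists in the human genome, so reads may be split with it.

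In the list of coagulation factors, receptors and anticoagulants, which includes PROS1, 12 of 29 genes were expressed enough to be tested, 1 fell, 0 rose and 11 did not pass. PROS1 was also the 1 gene of this list with an unadjusted limma p under 0.05. The median change over the list was -0.08. F7, which encodes the ligand of tissue factor, was listed at 0 in all 6 libraries, as were F13A1, PROZ and F2RL3. F10, which encodes its substrate, was listed at 0 in all but control replicate 3, where it had 0.203 TPM. F2RL1, which encodes the receptor PAR2 that the tissue factor complex and factor Xa can cleave, measured 37.7 ± 4.10 TPM in α-/-;βin cells and 33.6 ± 4.76 TPM in controls (SD, n = 3 each, log2 change 0.17, limma adjusted p = 0.714). F2R, the thrombin receptor PAR1, had 6.33 TPM in α-/-;βin cells and 5.47 TPM in controls. F7, F10, F2RL1 and F2R were named for their link to tissue factor after their values were seen.

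In the plasminogen list 12 of 19 genes were tested and 0 passed limma's adjusted threshold (1 had an unadjusted p under 0.05), with a median change of -0.05. ANXA2, the most highly expressed of the list, measured 3940 TPM in α-/-;βin cells and 3745 TPM in controls (log2 change 0.07, 95% interval -0.33 to 0.47, limma adjusted p = 0.934). PLG, which encodes plasminogen itself, averaged 0.146 TPM in α-/-;βin cells and 0.112 TPM in controls and was not tested.

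Of the clade B serpins, relatives of SERPINB2, 6 of 12 were tested and 0 passed by limma, also at an unadjusted p under 0.05 (median change 0.09). SERPINB5, or maspin, was the most abundant and measured 1074, 636 and 892 TPM in α-/-;βin libraries, against 816, 531 and 682 TPM in control libraries (log2 change 0.35, 95% interval -0.19 to 0.88, limma adjusted p = 0.650). Of 14 genes with Kunitz domains, the inhibitor fold of TFPI and TFPI2, 6 were tested and 0 passed by limma, with 2 at an unadjusted p under 0.05 (median change 0.14). APLP2, the most abundant of these, measured 397 TPM in α-/-;βin cells and 333 TPM in controls (log2 change 0.26, limma adjusted p = 0.232). COL6A3, named after its values were seen, had the largest change of this list. It measured 17.55 TPM in α-/-;βin cells and 8.32 TPM in controls (log2 change 1.02, limma adjusted p = 0.238). The groups did not overlap for these 2 genes, as for 17.1% of all tested genes.

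The last list held 19 transcription factors, chosen as acting on promoters of at least some of these genes, which was not tested here. Of these, 18 were tested and 0 passed by limma (2 had an unadjusted p under 0.05), with a median change of -0.01. FOSL1, a partner of JUN and the most abundant of the list, measured 117 ± 13.2 TPM in α-/-;βin cells and 127 ± 27.5 TPM in controls (SD, n = 3 each, log2 change -0.10, limma adjusted p = 0.893). FOS, picked after its values had been seen, had 24.0, 18.2 and 24.4 TPM in α-/-;βin replicates 1 to 3, against 7.11, 14.3 and 6.37 TPM in control replicates 1 to 3. The groups did not overlap, but the test did not pass (log2 change 1.25, limma adjusted p = 0.0970) except without control replicate 2. EGR1, likewise picked, overlapped between the groups (58.7 TPM in α-/-;βin cells and 48.0 TPM in controls).

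The 9 genes lie on chromosomes 1, 2, 7, 8, 10, 18, 19 and 20, with THBD and PROCR both on chromosome 20. By the RefSeq gene order, the 3 nearest tested genes on each side of each member were compared. Of these 54 neighbours, 0 passed the limma test, beside 2.19% of all tested genes. An unadjusted p under 0.05 was found for 6 (11.1%), beside 11.9% of all tested genes. Changes of the 54 neighbours lay between -0.74 and 0.67, with a median of -0.02. The nearest neighbours of F3 are ABCD3, a peroxisomal transporter, and SLC44A3. ABCD3 had a log2 change of -0.22 (limma adjusted p = 0.464) and SLC44A3 one of 0.02 (limma adjusted p = 0.989). Farther out, ARHGAP29 had -0.54 (limma adjusted p = 0.0892) and CNN3 had -0.70 (limma adjusted p = 0.419), and the 6 neighbours of F3 lay between -0.70 and 0.20, where F3 itself had -0.96. Next to TFPI2, VPS50, an endosomal trafficking protein, had -0.14 (limma adjusted p = 0.889) and GNG11, a G protein subunit, had -0.17 (limma adjusted p = 0.812). All 6 neighbours of TFPI2 had changes below 0, from -0.74 to -0.07, where TFPI2 itself had 1.68. The -0.74 was that of SAMD9L, at 0.761 TPM in α-/-;βin cells and 1.99 TPM in controls (limma adjusted p = 0.336). Of all tested genes, 46.7% had changes above 0. On chromosome 18, SERPINB2 stands between SERPINB7 (log2 change 0.07) and SERPINB8 (log2 change 0.10).

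**Figure D4:**
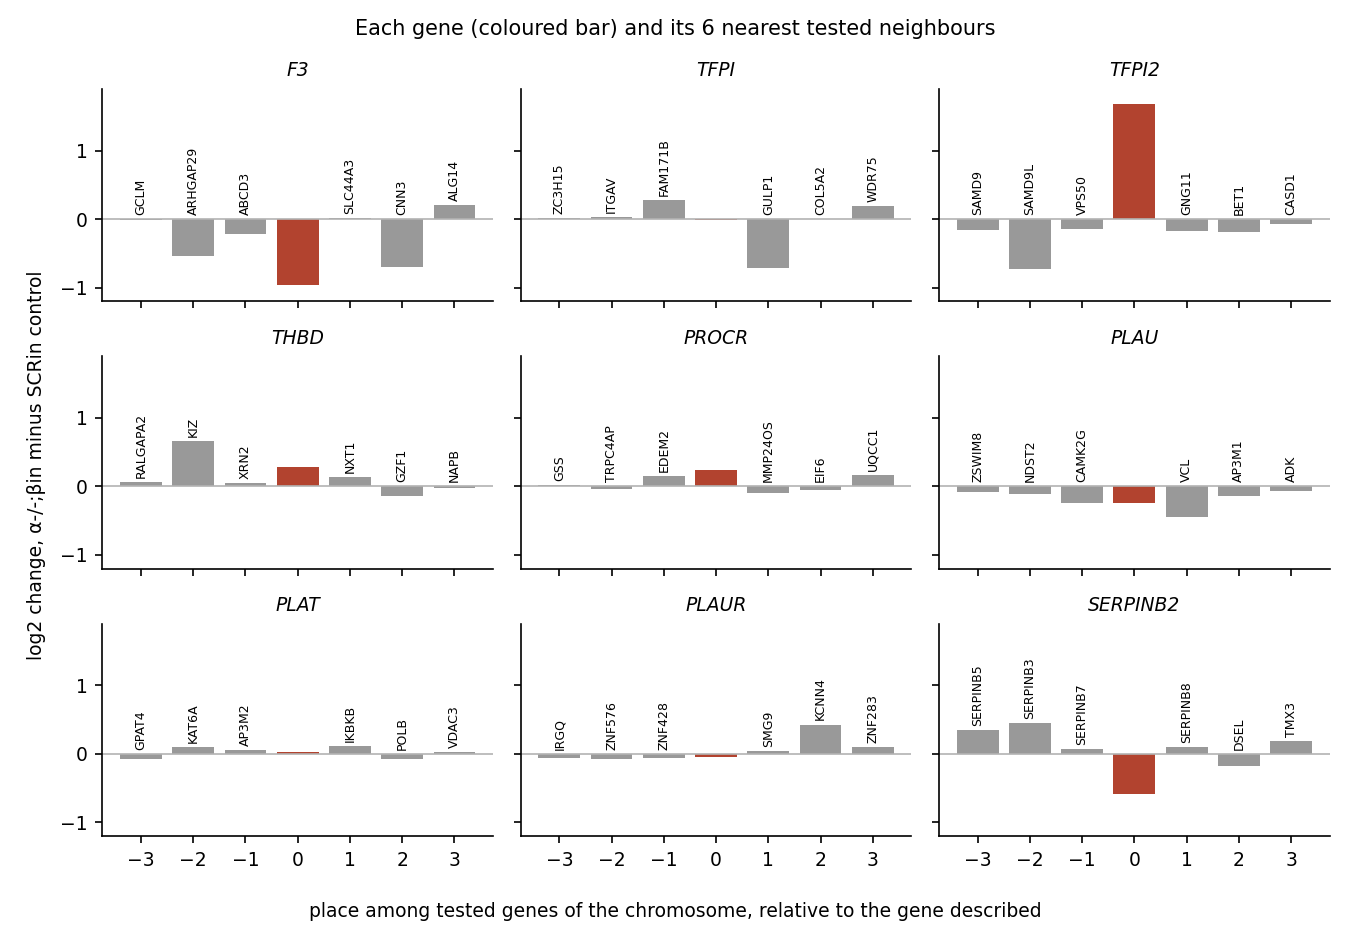
Log2 change, with SCRin control subtracted, of each of the 9 genes (red bar at place 0) and of the 3 nearest tested genes on each side in chromosome order (grey bars). The bars of F3 and TFPI2 exceed those of their neighbours, but the 9 genes were chosen with this contrast known. None of the 54 neighbours passed the test, beside 2.19% of all tested genes.

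The profiles most like those of F3 and TFPI2 were sought among 7966 other genes averaging 10 TPM or more, by the root mean square difference of their centred log2(TPM + 1) values over the 6 libraries. The nearest to F3 was KDELR3, a receptor that returns proteins to the endoplasmic reticulum, at a difference of 0.0564. It measured 27.5 ± 4.7 TPM in α-/-;βin cells and 54.0 ± 13 TPM in controls (SD, n = 3 each). HYI (0.0934) and FBXL18 (0.102) followed. The nearest to TFPI2 was MAOA, the enzyme monoamine oxidase A, at a difference of 0.233, with 27.7 ± 6.8 TPM in α-/-;βin cells and 8.37 ± 3.1 TPM in controls (SD, n = 3 each). CLCA2 (0.297) and NXN (0.333) followed. These genes were picked for their likeness, so it is a description with no test.

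The libraries were checked on genes outside the set. PIP4K2A and PIP4K2B, read as the genes of the α and β enzymes, stood at 20.4% and 43.6% of control. The markers listed as basal epithelial were KRT5, KRT14, KRT17, TP63, ITGA6, ITGB4, CDH3 and CDH1, the last not specific to basal cells. All were expressed, with summed levels of 1980 to 2550 TPM in α-/-;βin libraries and 1190 to 2240 TPM in control libraries. All 8 had changes above 0 (0.17 to 1.57 on the log2 scale), as had 46.7% of all tested genes. The 1.57 was that of KRT14 (SE 0.815), whose groups overlapped. KRT5, TP63, ITGA6 and CDH3, 4 of the 8, were higher in α-/-;βin cells without overlap, as were 5.64% of all tested genes. By limma 0 of the 8 passed the adjusted threshold and 5 had an unadjusted p under 0.05. Their part in the F3 and TFPI2 results was not tested. Endothelial cells carry most of the coagulation control described above in blood vessels, and their 6 markers summed to 1.08 to 1.22 TPM in α-/-;βin libraries and 0.637 to 2.12 TPM in control libraries, with CLDN5 at 0 in all. Of 6 fibroblast markers, 2 reached a mean of 1 TPM, the sums were 2.73 to 6.08 TPM in α-/-;βin libraries and 1.96 to 6.32 TPM in control libraries, and COL3A1 was at 0 in all. The 5 leukocyte markers summed to 43.5 to 45.8 TPM in α-/-;βin libraries and 42.9 to 47.5 TPM in control libraries, nearly all of it from CD68 and CD14, while PTPRC was at 0 in all. CD14 had 8.12 TPM in α-/-;βin cells and 4.43 TPM in controls, without overlap (log2 change 0.79, limma adjusted p = 0.264). CD68 had 36.8 TPM in α-/-;βin cells and 41.4 TPM in controls, with overlap. Luminal and hormone receptor markers summed to 567 to 678 TPM in α-/-;βin libraries and 632 to 726 TPM in control libraries, with ESR1 and PGR below 0.2 TPM. Most of these sums came from KRT8 (log2 change -0.34) and KRT18 (log2 change -0.04). FOXA1 had a log2 change of 0.71 (limma unadjusted p = 0.0334, adjusted p = 0.357) and GATA3 one of 0.06, and none of these genes was called.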

How the data were processed

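The authors deposited 1 table of TPM per gene symbol, with 1 column per library, and each column sums to 1000000. The submitters' processing notes name hg19 and DESeq2 without a role. Not given in the sources used here are the aligner, quantification program, annotation and strandedness. The read depth of each library is unknown, since TPM does not retain it. The columns headed as the experiment were taken as the α-/-;βin samples, the only group besides the controls.

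Values were transformed to log2(TPM + 1), and limma 3.58.1, run in R 4.3.3, was fitted to the 12096 genes averaging 1 TPM or more (empirical Bayes with a mean-variance trend, two-sided, Benjamini-Hochberg). The script was tested on simulated data. Alternatives covered the pseudocount, the filter, the trend, 2 scalings, the replicate number as a block and each library left out. The 9 genes and the 5 lists were chosen with earlier results of these data known. Genes named by rule were the 9, the list genes past the threshold or else the most highly expressed, the neighbours, the nearest profiles and the targeted genes. Further genes followed none of these rules, and several of them were picked after their values were seen. A gene of the lists and a marker were left out of all counts and are not reported here.

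RefSeq (GRCh38.p14), which matched 27010 of 27914 symbols or synonyms, gave gene order and promoters, not coordinates of the deposited values. Promoter windows were present for 7 of the 9 genes. Because strand is not given, PLAU reads cannot be separated from those of C10orf55, which overlaps it and had at most 1.35 TPM.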

Additional observations from a re-analysis of the deposited data

How the results depend on the processing

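The count of calls over all genes was 265, and lay between 209 and 322 under the other pseudocount, filters, trend and scalings. It was 106 to 219 with a library left out, with 106 without control replicate 3, 119 without α-/-;βin replicate 3 and 163 without α-/-;βin replicate 1. With the replicate number as a block it was 881. The labels do not say whether libraries of the same number were paired or shared a batch, and this was not tested. Deviations of same-numbered libraries from their group means correlated at 0.246, 0.269 and -0.015 for numbers 1 to 3 over 12096 genes, and number 3 did not correlate best with its own number.

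Among the 9 genes, 2 were called, and 1 with no filter, with no mean-variance trend and with median-of-ratios scaling, where F3 was lost. With a library left out the count was 0 to 1. F3 and TFPI2 kept their direction under all 13 alternatives, with log2 changes of -1.08 to -0.78 for F3 and 1.46 to 1.85 for TFPI2. THBD and PROCR also kept their direction under all 13, and SERPINB2 under the 12 that tested it (it is below the filter of 5 TPM), while PLAU (-0.75 to 0.31), PLAUR, PLAT and TFPI took either sign. In the 5 lists 1 gene was called, 0 to 1 with a library left out and 5 with the replicate block, 3 higher and 2 lower (APLP2, ETS2, PROS1, SERPINB5 and TEAD2, with adjusted p = 0.014 for SERPINB5 and 0.0331 for APLP2 by limma). With a library left out, ANXA2 ranged from -0.065 to 0.209 and FOSL1 from -0.258 to 0.053. The causes were not tested. The median change of all tested genes moved by less than 0.1 under each scaling. With 3 libraries a group and depth unknown, small changes could have been missed.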
